A study of Mus musculus with 9 samples.

Results

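D2A1-d, a mouse breast carcinoma line, was studied with the hairpin shMed1 #4, and its cells were compared with D2A1-d cells that carry the hairpin shMed1 #2. The comparison was defined by the sample titles alone and uses 6 of the 9 RNA-seq samples of the series, 3 for each hairpin, and the other 3, which carry a non-targeting control hairpin (NTC), serve as a reference level. All cells were transduced with a short hairpin RNA, so the controls carry a vector too. The labels give the genotype of the NTC samples as WT and that of both hairpin groups as Med1 Knockdown, and name no drug or other treatment. The series comes from a study of the Mediator subunit MED4 and metastatic dormancy. Growth was in serum-supplemented medium, and a single line was used. The labels do not state whether replicates of a group were transduced or grown apart, so each p-value reflects the scatter among these particular samples, and that scatter may be technical.

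Mediator is a large complex that carries signals from DNA-bound transcription factors to RNA polymerase II. MED1 lies in its middle module and is the subunit through which nuclear receptors bind the complex. In RNA interference an expressed hairpin is cut by the enzyme Dicer into a short guide that directs an Argonaute protein to a matching messenger RNA, here that of Med1. Set against each other, 2 hairpins with a like loss of Med1 mRNA allow their transcriptomes to be compared at a similar level of the target. The guide sequences were not used here.

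Library totals lay between 8123918 and 8879982 counts. In all, 13611 genes passed the filter on low counts and were tested with edgeR's quasi-likelihood test. The 9 libraries fell into 3 separate groups: along the first principal component (48.8% of the variance) shMed1 #4 lay between NTC and shMed1 #2, and the second (16.7%) set shMed1 #4 apart from both. The label "breast carcinoma" was checked against marker genes: of 10 markers of tumour epithelium only Krt8 and Krt18 had enough counts to be tested, Epcam, Cldn3, Cldn4 and Elf5 were at 0 counts in every library, and Cdh1 had 4 counts in all 9 libraries together. Vim, the mesenchymal intermediate filament, supplied most of a fibroblast and mesenchyme marker sum of 2038 to 2916 CPM. CPM are counts relative to library size, with edgeR's TMM factors applied. Leukocyte markers summed to 57.05 to 61.04 CPM in shMed1 #2, 66.2 to 73.8 CPM in shMed1 #4 and 74.7 to 88.2 CPM in NTC. The sums came mostly from Cd68, Csf1r and Cd14, while Ptprc had 5 counts in all. Cd14 averaged 42.9 CPM in shMed1 #2 and 55.2 CPM in shMed1 #4. Csf1r averaged 12.3 and 12.2 CPM and Cd68 2.42 and 2.59 CPM in the same order. The myoepithelium markers summed to 205.7 to 222 CPM in shMed1 #2, 287 to 347 CPM in shMed1 #4 and 228 to 241 CPM in NTC, with the shMed1 #4 libraries above all others. Acta2, which activated mesenchymal cells also express, supplied nearly all of that sum and was the 1 marker of 6 with enough counts to be tested, while Krt5 was at 0 in every library. The part of these marker sums in the results was not tested. Endothelial and adipocyte markers stayed at or below 1.04 CPM in every library.

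The targeted gene was low with both hairpins, and no difference between them was detectable. Med1 (ENSMUSG00000018160.15, minus strand, chr11:98152154-98193293, GRCm38) stood at 85.6, 87.5 and 79.8 CPM in NTC, at 22.1, 25.2 and 24.7 CPM in shMed1 #2 and at 25.02, 26.6 and 25.5 CPM in shMed1 #4. The ranges of the hairpin groups overlapped, and both lay far below NTC. The difference of shMed1 #4 from shMed1 #2 was 0.10 on the log2 scale (95% interval -0.08 to 0.28, adjusted p = 0.461), an interval that includes 0 and does not show that the levels are equal. Med4, which encodes another subunit of the middle module, averaged 28.8 ± 1.8 CPM in shMed1 #2 and 29.1 ± 0.613 CPM in shMed1 #4 (± SD, n = 3), a log2 difference of 0.01 with a 95% interval of -0.16 to 0.19. Among 32 subunit genes of Mediator 4 were higher and 5 lower with shMed1 #4 (28.1%, against 26% of all genes tested). Their median difference was -0.01. Leaving out 1 hairpin library at a time changed these counts to 2 to 4 higher and 1 to 3 lower, with the 1 found without replicate 1 of shMed1 #2.

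RNA levels differed widely between the 2 hairpin groups, and an effect of the hairpin cannot be told apart from one of the transduced culture. Of 13611 genes, 3540 (26%) differed between the hairpins at an adjusted p under 0.05, the threshold at which a gene is said to be called here. Higher and lower mean higher and lower with shMed1 #4 than with shMed1 #2 throughout, and in bulk RNA fewer cells of a kind and less RNA per cell cannot be told apart. With shMed1 #4, 1758 genes (12.9%) were higher and 1782 (13.1%) lower. Most differences were small: the median size among called genes was 0.30 on the log2 scale, and 50.2% of them were under 0.3. Differences of at least 2-fold were mostly in the higher direction, with 203 genes (1.49%) against 65 (0.478%). The 3 libraries of one hairpin lay wholly above or below those of the other for 5101 genes (37.5%), 18.9% above and 18.6% below. Against NTC, measured in the same fit, 5947 genes (43.7%) were called with shMed1 #2 and 3836 (28.2%) with shMed1 #4.

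**Figure D1:**
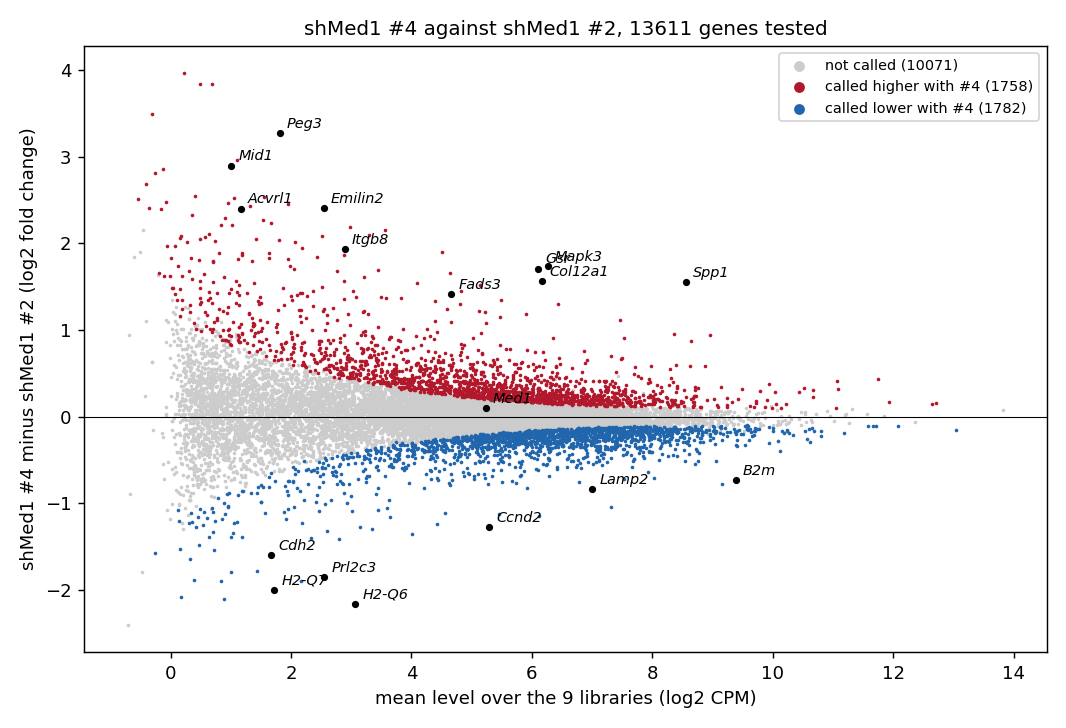
Each point is 1 of 13611 genes, placed by its mean level over the 9 libraries in log2 CPM (horizontal) and by its log2 fold change of shMed1 #4 against shMed1 #2 (vertical). Red points are the 1758 genes called higher with shMed1 #4, blue points the 1782 called lower and grey points the rest, and black points are named genes, with Med1 close to 0.

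Several of the higher genes stood near the NTC level with shMed1 #4 and far below it with shMed1 #2. Mapk3 (ENSMUSG00000063065.13, plus strand, chr7:126759601-126765819) encodes the kinase ERK1 of the MAP kinase cascade. It stood at 112, 111 and 112 CPM in NTC, 36.2, 31.2 and 36.5 CPM in shMed1 #2 and 118, 119.7 and 109 CPM in shMed1 #4 (log2 difference 1.74, SE 0.064, adjusted p = 4.12e-38). The shMed1 #4 libraries lay around the NTC libraries, and the shMed1 #2 libraries were well below both. Gsr, glutathione reductase, which regenerates reduced glutathione, showed the same order: 102, 101 and 106 CPM in NTC, 32.6, 31.7 and 27.7 CPM in shMed1 #2 and 98.7, 100.2 and 102 CPM in shMed1 #4 (log2 difference 1.71, SE 0.0663, adjusted p = 7.73e-37). Prrx1, a homeobox factor of mesenchymal cells, was at 16, 12.5 and 13.9 CPM, 3.22, 1.97 and 2.65 CPM and 11.99, 13.6 and 10.4 CPM in the same order (log2 difference 2.19, SE 0.189, adjusted p = 1.84e-16). In each of these 3 genes the shMed1 #4 and NTC libraries overlapped, and the shMed1 #2 libraries stood apart below them.

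Col12a1 followed another order. This gene (ENSMUSG00000032332.17, minus strand, chr9:79598991-79718831) encodes a collagen that binds to the surface of fibrils. It had 75.3, 66.4 and 70.7 CPM in NTC, 40.3, 42.03 and 43.6 CPM in shMed1 #2 and 125, 123 and 124 CPM in shMed1 #4 (log2 difference 1.56, SE 0.061, adjusted p = 8.16e-37), so that NTC lay between the hairpins and the 3 groups were all separate. Cyp1b1, a cytochrome P450 of steroid and xenobiotic metabolism, was likewise lower than NTC with shMed1 #2 and higher with shMed1 #4, with group means of 101 ± 0.493, 50.6 ± 2.75 and 124 ± 8.73 CPM (± SD over 3 libraries, as for all means that follow; log2 difference 1.30, SE 0.0594, adjusted p = 3.39e-32). Scd2, a stearoyl-CoA desaturase, lay below NTC in both groups and lower in shMed1 #2, at means of 949 ± 18.9, 262 ± 9.57 and 502 ± 10.98 CPM (log2 difference 0.94, SE 0.0416, adjusted p = 4.08e-33). Sh3d19, Cp and Rcc2 complete the 8 higher genes with the smallest p. Their differences were 1.11, 0.95 and 0.87 on the log2 scale. Cp, the copper-binding ferroxidase ceruloplasmin, overlaps Hps3 in the annotation, and without a known strand setting the reads of the 2 genes cannot be told apart.

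By size, the 12 highest genes, among those whose mean reached 1 log2 CPM, were led by Peg3, an imprinted zinc-finger gene expressed from the paternal allele. Peg3 (ENSMUSG00000002265.17, minus strand, chr7:6703892-6730431) was at 3.52, 3.62 and 4.63 CPM in NTC, 0.345, 1.97 and 0.692 CPM in shMed1 #2 and 8.73, 11.6 and 9.04 CPM in shMed1 #4 (log2 difference 3.27, SE 0.268, adjusted p = 1.85e-16). Its 3 groups did not overlap, with NTC in the middle. Of the other 6 tested genes of the list of imprinted genes, Igf2r was lower (difference -0.30; it lost the call without replicate 2 of shMed1 #2, at -0.27, and without replicate 1 of shMed1 #4, at -0.15) and 5 were not called. Acvrl1, which encodes the endothelial TGF-beta family receptor ALK1, rose from 0.92, 0.813 and 1.04 CPM in shMed1 #2 to 5, 3.97 and 5.8 CPM in shMed1 #4, against 2.06, 1.69 and 1.39 CPM in NTC (log2 difference 2.40, SE 0.303, adjusted p = 5.97e-10). Emilin2, an elastic-fibre glycoprotein of the matrix, was at 1.84, 1.63 and 1.96 CPM in shMed1 #2, 8.84, 9.87 and 10.2 CPM in shMed1 #4 and 10.2, 9.4 and 9.26 CPM in NTC (log2 difference 2.40, SE 0.209, adjusted p = 2.49e-16). The others were Cldn9, a tight-junction claudin (2.96), Mid1, a microtubule-bound ubiquitin ligase (2.89), Morc1 (2.54), Brinp3 (2.45), Cpt1c, a neuronal carnitine palmitoyltransferase (2.43), Cacng7 (2.26), P3h4 (2.24), Kif5c, a kinesin heavy chain (2.21), and Prrx1. All 12 had low levels with shMed1 #2: 3 counts amount to 0.338 to 0.369 CPM here, and Cldn9 stood at 0.23, 0.348 and 0.576 CPM and Mid1 at 0.46, 0.232 and 0.692 CPM in that group.

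Among lower genes the smallest p-values belonged to Itpripl2, B2m, S100a7a, Ccnd2, Nqo1, Rgs16, Lamp2 and Gja1. Ccnd2 (ENSMUSG00000000184.12, minus strand, chr6:127125162-127152193) encodes cyclin D2, which drives entry into S phase with CDK4 and CDK6. Its level was 34.7, 32.7 and 30.1 CPM in NTC, 67.7, 66.9 and 64.1 CPM in shMed1 #2 and 25.8, 28.2 and 28.2 CPM in shMed1 #4 (log2 difference -1.27, SE 0.0755, adjusted p = 3.38e-25). The shMed1 #2 libraries stood alone above the other 2 groups. Lamp2, a major glycoprotein of the lysosome membrane, showed the opposite arrangement, with shMed1 #4 alone below: 160.5, 167 and 162 CPM in NTC, 158, 148 and 148 CPM in shMed1 #2 and 86.2, 89.1 and 79.1 CPM in shMed1 #4 (log2 difference -0.84, SE 0.0523, adjusted p = 7.43e-24). Gja1, the gap-junction protein connexin 43, averaged 108 ± 4.41, 143 ± 3.26 and 85.2 ± 0.361 CPM in NTC, shMed1 #2 and shMed1 #4 (log2 difference -0.75, SE 0.0518, adjusted p = 2.26e-21). S100a7a, a small calcium-binding protein of the psoriasin family, averaged 44.6 ± 2.5, 128 ± 10.8 and 57.98 ± 5.12 CPM (log2 difference -1.14, SE 0.0619, adjusted p = 2.55e-26). Rgs16, which shortens G protein signals, averaged 21.98 ± 2.49, 91.3 ± 5.71 and 42.03 ± 3.21 CPM (log2 difference -1.12, SE 0.0683, adjusted p = 1.77e-24). Itpripl2 averaged 177 ± 11.4, 217 ± 7.12 and 105 ± 4.23 CPM (log2 difference -1.04, SE 0.0496, adjusted p = 3.41e-31).

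**Figure D2:**
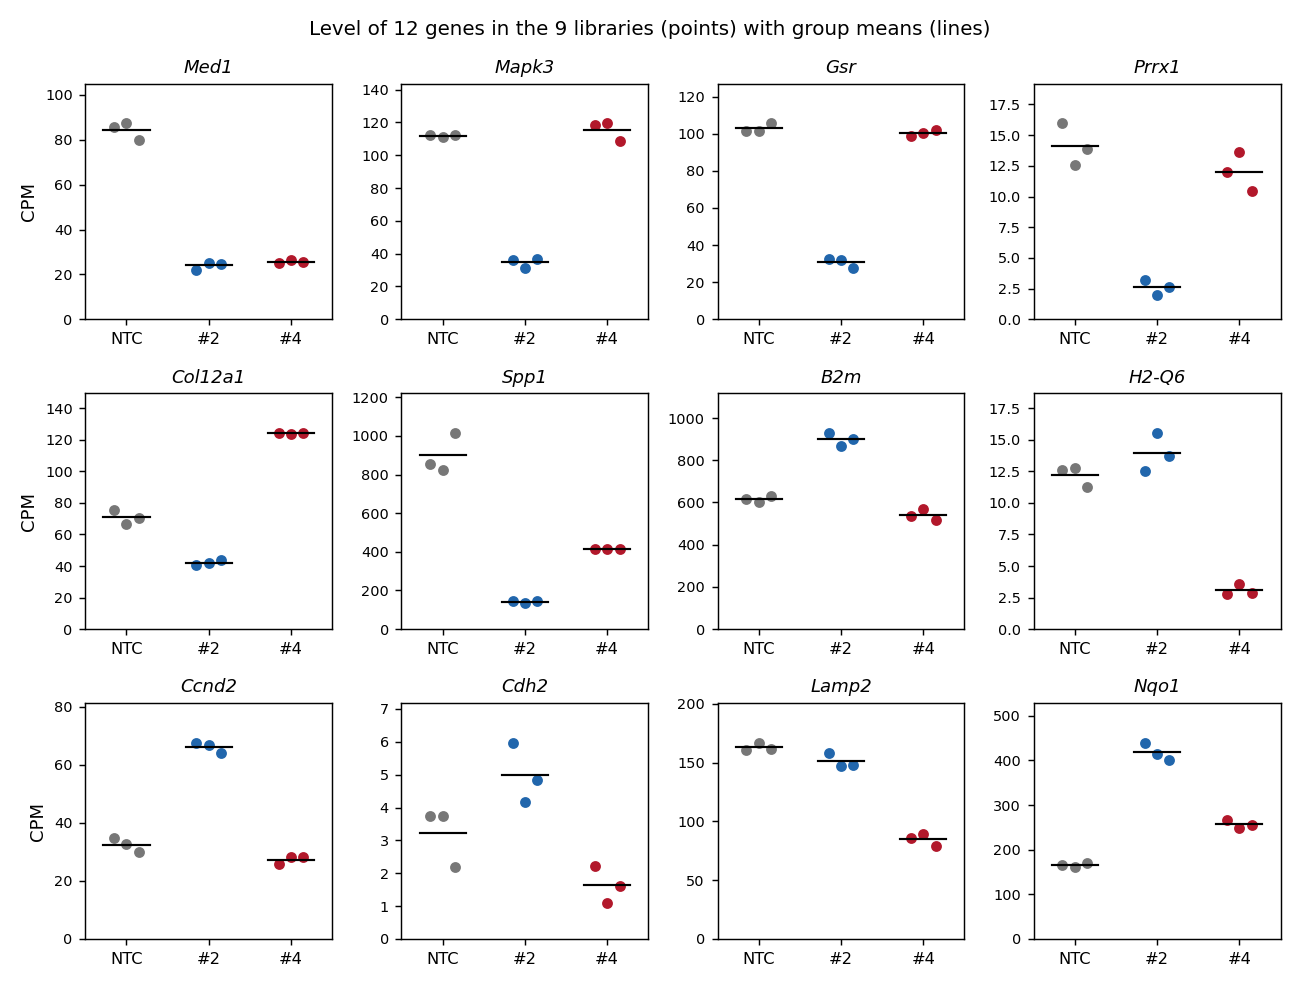
CPM of 12 genes (vertical axis of each panel, from 0) in NTC (grey), shMed1 #2 (blue) and shMed1 #4 (red), 1 point per library with the group mean as a line. Med1 is low in both hairpin groups, Mapk3 and Gsr are low in shMed1 #2 only, H2-Q6 and Lamp2 are low in shMed1 #4 only, and NTC lies between the hairpins in Col12a1.

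The 12 lowest genes by size included 2 class I histocompatibility genes and 2 cadherins. Cdh2, N-cadherin, the adhesion molecule of mesenchymal cells, fell from 5.98, 4.18 and 4.84 CPM in shMed1 #2 to 2.21, 1.08 and 1.62 CPM in shMed1 #4, against 3.76, 3.74 and 2.2 CPM in NTC (log2 difference -1.60, SE 0.269, adjusted p = 1.61e-06). Cdh17 was at 9.2, 11.96 and 12.3 CPM, 3.49, 5.66 and 3.48 CPM and 7.39, 5.78 and 6.95 CPM in the same order (log2 difference -1.41, SE 0.178, adjusted p = 6.64e-10). For both genes the NTC libraries lay mostly between the hairpins. Dennd2a, an exchange factor for Rab GTPases, was at 6.78, 6.15 and 6.8 CPM in shMed1 #2, 1.16, 1.93 and 2.2 CPM in shMed1 #4 and 6.67, 6.15 and 7.18 CPM in NTC (log2 difference -1.89, SE 0.237, adjusted p = 4.61e-10). Its shMed1 #2 libraries overlapped NTC. Gsta4, a glutathione transferase that clears lipid aldehydes, averaged 19.6 ± 1.01, 23.1 ± 0.798 and 9 ± 1.25 CPM in NTC, shMed1 #2 and shMed1 #4 (log2 difference -1.36, SE 0.121, adjusted p = 7.25e-16). Prl2c3, of the proliferin family, whose members are close copies so that reads may be split between them, differed by -1.85. The others were P2ry12 (-1.78; it overlaps Med12l), Nipal1 (-1.40), Fam71f1 (-1.39), Dzank1 (-1.39) and Dnaaf3 (-1.34; it overlaps a predicted gene).

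Most genes of MHC class I presentation were lower with shMed1 #4. These genes encode the heavy chains that display peptides on the cell surface, their shared light chain, the peptide transporter and NLRC5, the transcriptional activator of the class. Of 17 members tested, 10 were lower, 1 was higher and 6 were not called, with a median difference of -0.37, against 13.1% lower, 12.9% higher and a median of 0.01 over all genes. Against NTC the median of the list was -0.20 with shMed1 #2 and -0.59 with shMed1 #4, 2 values that share the NTC samples. The light chain gene B2m (ENSMUSG00000060802.8, plus strand, chr2:122147686-122153083) had 616, 601 and 629 CPM in NTC, 930.4, 866 and 901 CPM in shMed1 #2 and 534, 569.7 and 518 CPM in shMed1 #4 (log2 difference -0.73, SE 0.0402, adjusted p = 3.12e-27). The 3 groups were separate, with shMed1 #2 above NTC and shMed1 #4 below it. Nlrc5 itself was at 35.4, 30.4 and 31.03 CPM in NTC, 30.1, 28.4 and 29.6 CPM in shMed1 #2 and 12.2, 11.7 and 16.8 CPM in shMed1 #4 (log2 difference -1.11, SE 0.108, adjusted p = 3.41e-14). Here NTC and shMed1 #2 nearly met, and shMed1 #4 stood below both.

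Heavy chain genes and Tap1 were among the lower members. H2-Q6 (ENSMUSG00000073409.12, plus strand, chr17:35424850-35430055) was at 12.6, 12.8 and 11.2 CPM in NTC, 12.5, 15.6 and 13.7 CPM in shMed1 #2 and 2.79, 3.61 and 2.9 CPM in shMed1 #4 (log2 difference -2.16, SE 0.173, adjusted p = 4.50e-18). H2-Q7 was lower as well, at 4.83, 5.11 and 6.22 CPM in shMed1 #2 and 0.582, 2.53 and 0.927 CPM in shMed1 #4 (adjusted p = 2.65e-08), and so was H2-Q4 (log2 difference -0.82, SE 0.0675, adjusted p = 1.52e-17). These Qa-region genes are near copies of one another, so their single values are uncertain. The classical heavy chain H2-K1 averaged 199 ± 7.05, 229.96 ± 4.69 and 139.6 ± 13.4 CPM in NTC, shMed1 #2 and shMed1 #4 (log2 difference -0.72, SE 0.0489, adjusted p = 3.98e-21), and H2-D1 averaged 277 ± 18.9, 235 ± 6.3 and 184 ± 7 CPM (log2 difference -0.35, SE 0.0464, adjusted p = 2.33e-09). Tap1, a subunit of the peptide transporter, fell from 10.7, 11.8 and 10.5 CPM in shMed1 #2 to 5.12, 4.69 and 3.83 CPM in shMed1 #4, beside 12.4, 10.8 and 14.7 CPM in NTC (log2 difference -1.27, SE 0.169, adjusted p = 2.95e-09). The member that was higher is Calr, an endoplasmic reticulum chaperone that also serves peptide loading, while Canx and Tapbp differed by 0.01 and 0.03 and were not called.

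Of 28 interferon-stimulated genes tested, 4 were higher and 2 lower (21.4% called, against 26% of all genes), with a median difference of 0.20, and 1 was lower when any of the 6 hairpin libraries was left out. Against NTC 21 of them were lower with shMed1 #2 and 20 with shMed1 #4, at medians of -0.97 and -0.78. Ifitm3, a membrane protein that blocks virus entry, was among the higher ones (difference 0.30). In the list of NF-kB, chemokine and cytokine genes 4 of 26 were higher and 4 lower (30.8% called). Vcam1, an adhesion molecule for leukocytes, was the member with the largest difference: 64.97, 65.3 and 67.04 CPM in NTC, 11.3, 10.9 and 11.2 CPM in shMed1 #2 and 31.9, 30.9 and 28.8 CPM in shMed1 #4 (log2 difference 1.46, SE 0.102, adjusted p = 3.98e-21). Its 3 groups were separate, with shMed1 #4 in the middle.

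For the presentation genes, 15 of 17 had a promoter in the RefSeq table (build GRCm38.p6, 250 bases before to 50 after a start). An interferon-stimulated response element, spelled GAAA, any 2 bases and GAAA again and searched on both strands, was present in 4 of the 15 (26.7%), against 3.54% of 9460 tested genes with a promoter. The 4 were B2m, Erap1, H2-T22 and H2-T23. B2m and H2-T23 are shown because both hold the letters while their differences point opposite ways: B2m was lower by the values above, and H2-T23 stood at 4.6, 4.88 and 4.96 CPM in shMed1 #2 and 6.4, 6.74 and 6.49 CPM in shMed1 #4 (difference 0.44, adjusted p = 0.0831, not called). The 200 bases before the start are printed 5′ to 3′ along the gene's strand, with the match in capitals, for B2m at chr2:122147487-122147686, plus strand, and for H2-T23 at chr17:36032702-36032901, minus strand.
B2m: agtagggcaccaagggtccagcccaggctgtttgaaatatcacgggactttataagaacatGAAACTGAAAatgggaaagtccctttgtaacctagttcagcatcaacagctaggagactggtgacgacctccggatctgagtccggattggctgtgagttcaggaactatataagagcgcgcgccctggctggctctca
H2-T23: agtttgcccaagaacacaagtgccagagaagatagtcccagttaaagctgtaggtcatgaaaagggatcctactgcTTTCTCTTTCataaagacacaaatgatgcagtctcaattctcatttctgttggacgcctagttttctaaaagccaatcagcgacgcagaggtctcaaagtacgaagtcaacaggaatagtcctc
A match to these letters is a description and not a site.

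Cholesterol synthesis stood out in the other direction. The pathway turns acetyl-CoA into sterols, and its genes are driven together by the factor SREBP2. Of 26 members tested 20 were higher with shMed1 #4, 0 were lower and 6 were not called, with a median difference of 0.28, against 12.9% higher over all genes. The list's median against NTC was -0.58 with shMed1 #2 and -0.31 with shMed1 #4. Fdps, farnesyl diphosphate synthase, had 9.09, 9.88 and 10.3 CPM in NTC, 2.53, 3.02 and 3.11 CPM in shMed1 #2 and 4.89, 5.9 and 5.1 CPM in shMed1 #4 (log2 difference 0.87, SE 0.216, adjusted p = 0.00109). Insig1, the sterol-regulated brake on SREBP processing, had 78.4, 78.3 and 84.9 CPM, 35.5, 37.3 and 40.7 CPM and 54.8, 55.7 and 63.9 CPM in the same order (log2 difference 0.62, SE 0.0725, adjusted p = 4.65e-11). In both genes shMed1 #4 lay between the other 2 groups without overlap. Dhcr7, which catalyses the last step to cholesterol, differed from them in that shMed1 #4 overlapped NTC: 42.3, 46.03 and 40.99 CPM in NTC, 28.97, 29.1 and 26.3 CPM in shMed1 #2 and 44.8, 41.6 and 41.9 CPM in shMed1 #4 (log2 difference 0.60, SE 0.0811, adjusted p = 3.99e-09). Mvd (0.62), Fdft1 (0.45), Hmgcs1 (0.41), Sqle (0.25) and Srebf2 itself (0.22) were all higher.

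Fatty acid synthesis moved in the same direction, with 10 of 18 members higher and 2 lower and a median difference of 0.19. Of these members 66.7% were called, against 26% of all genes. Fads3, of the fatty acid desaturase cluster, was at 47.2, 53.7 and 47.9 CPM in NTC, 11.2, 12.8 and 8.99 CPM in shMed1 #2 and 28.6, 29.1 and 29.8 CPM in shMed1 #4 (log2 difference 1.41, SE 0.109, adjusted p = 7.54e-19). Acly, which supplies cytosolic acetyl-CoA, averaged 266 ± 5.78, 153 ± 6.01 and 215 ± 2.41 CPM in NTC, shMed1 #2 and shMed1 #4 (log2 difference 0.49, SE 0.0455, adjusted p = 4.60e-15). Lpin1 (0.63) and Srebf1 (0.35), the regulator of this pathway, were higher as well. Elovl5, an elongase of polyunsaturated fatty acids, was 1 of the 2 lower members (log2 difference -0.35, SE 0.0553, adjusted p = 5.06e-07). In the list of sterol efflux genes 3 of 11 were higher and 3 lower, and Soat1, which esterifies cholesterol, was the lowest of them (-0.55).

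**Figure D3:**
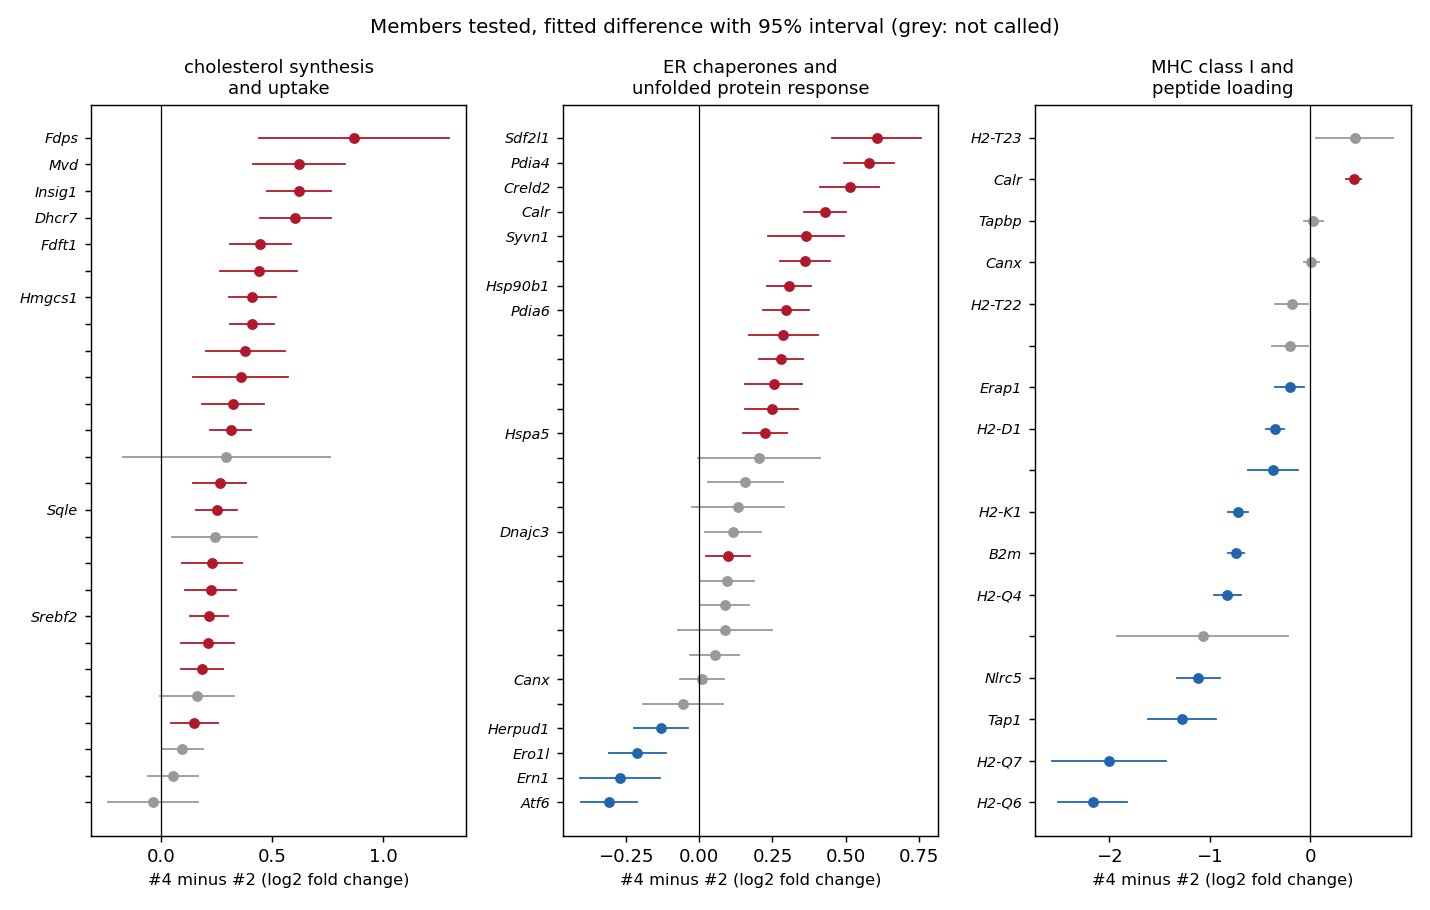
Fitted log2 fold change of shMed1 #4 against shMed1 #2 (horizontal) with its 95% interval for each member tested of 3 gene lists. Most members named in the text are labelled. Points are red where called higher, blue where called lower, grey where not called. In cholesterol synthesis 20 of 26 members are red and 0 blue, in endoplasmic reticulum chaperones 14 of 28 are red and 4 blue, and in MHC class I 10 of 17 are blue and 1 red.

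Many chaperones of the endoplasmic reticulum, which fold secreted and membrane proteins, were higher. Among genes for sensors of misfolded protein in the membrane of the reticulum, Atf6 and Ern1 were lower and Eif2ak3 was higher. Eif2ak3, which overlaps a predicted gene, averaged 37.4 ± 3.58, 24.4 ± 1.36 and 29.6 ± 1.27 CPM in NTC, shMed1 #2 and shMed1 #4 (log2 difference 0.28, SE 0.0915, adjusted p = 0.0169). Of 28 members of the list, 14 were higher and 4 lower (64.3% called, against 26% of all genes), with a median difference of 0.18. Against NTC the list's median was -0.56 with shMed1 #2 and -0.39 with shMed1 #4. Creld2, a secreted disulphide isomerase, was at 245, 269 and 274 CPM in NTC, 117, 110.4 and 112 CPM in shMed1 #2 and 166, 169 and 151 CPM in shMed1 #4 (log2 difference 0.51, SE 0.0508, adjusted p = 6.48e-14). Calr, the calcium-binding chaperone calreticulin, was at 4424, 4292 and 4398 CPM, 2656, 2584 and 2609 CPM and 3554, 3499.7 and 3529 CPM in the same order (log2 difference 0.43, SE 0.0361, adjusted p = 4.31e-17). Hspa5, the chaperone BiP, was at 1902, 1935 and 1946 CPM, 1362, 1371 and 1393 CPM and 1595, 1694 and 1533 CPM (log2 difference 0.23, SE 0.038, adjusted p = 1.63e-06). In these 3 genes shMed1 #4 lay between NTC and shMed1 #2 without overlap. Sdf2l1 (0.61), Pdia4 (0.58), Hsp90b1 (0.31) and Pdia6 (0.30) were also higher. The 4 lower genes were Atf6, Ern1, Ero1l and Herpud1. Atf6 averaged 151 ± 7.47, 202 ± 8.25 and 163 ± 8.78 CPM in NTC, shMed1 #2 and shMed1 #4 (log2 difference -0.31, SE 0.0474, adjusted p = 1.84e-07), and Ern1 averaged 49.8 ± 3.46, 57.6 ± 1.88 and 47.7 ± 1.14 CPM (log2 difference -0.27, SE 0.0687, adjusted p = 0.00144).

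The endoplasmic reticulum stress element, spelled CCAAT, any 9 bases and CCACG, was found on either strand in 8 of the 22 members with a RefSeq promoter (36.4%), against 0.169% of 9460 tested genes and 0.119% of all 32851 promoters of that length. Its first letters are the CCAAT box, which 43.5% of the tested genes hold. The 8 were Calr, Canx, Creld2, Dnajc3, Hsp90b1, Hspa5, Pdia6 and Syvn1; Canx and Dnajc3 were not called between the hairpins, and the other 6 were higher. The 200 bases before the start are printed 5′ to 3′ along the gene's strand, with the match in capitals, for 4 of the higher genes and, because it holds the same element without being called, for Canx. The windows are chr2:34771890-34772089, plus strand, for Hspa5, chr8:84846932-84847131, minus strand, for Calr, chr12:17266389-17266588, plus strand, for Pdia6, chr15:88819446-88819645, plus strand, for Creld2, and chr11:50325674-50325873, minus strand, for Canx.
Hspa5: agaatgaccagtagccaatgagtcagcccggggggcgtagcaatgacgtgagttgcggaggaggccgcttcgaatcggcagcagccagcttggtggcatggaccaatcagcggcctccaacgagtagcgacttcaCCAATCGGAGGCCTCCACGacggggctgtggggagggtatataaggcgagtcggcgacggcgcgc
Calr: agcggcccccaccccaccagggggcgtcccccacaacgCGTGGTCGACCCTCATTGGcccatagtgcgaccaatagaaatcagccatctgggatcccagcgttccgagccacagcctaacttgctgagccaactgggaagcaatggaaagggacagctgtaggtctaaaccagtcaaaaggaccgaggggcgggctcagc
Pdia6: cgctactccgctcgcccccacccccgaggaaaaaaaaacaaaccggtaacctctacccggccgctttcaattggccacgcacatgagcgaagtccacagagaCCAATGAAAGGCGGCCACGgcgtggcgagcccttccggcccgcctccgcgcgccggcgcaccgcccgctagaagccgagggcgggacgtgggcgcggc
Creld2: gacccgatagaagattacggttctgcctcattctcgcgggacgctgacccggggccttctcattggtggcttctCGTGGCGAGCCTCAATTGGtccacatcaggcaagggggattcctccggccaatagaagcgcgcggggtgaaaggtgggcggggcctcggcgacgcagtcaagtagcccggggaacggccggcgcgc
Canx: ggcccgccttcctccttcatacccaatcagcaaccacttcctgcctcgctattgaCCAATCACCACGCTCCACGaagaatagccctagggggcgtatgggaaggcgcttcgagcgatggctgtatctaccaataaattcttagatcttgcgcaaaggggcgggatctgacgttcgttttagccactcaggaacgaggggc
In Calr and Creld2 the match is on the opposite strand and so reads from the reversed box. In cholesterol synthesis the sterol response element TCACNCCAC was found in 1 of 19 promoters, that of Hmgcs1, against 1.36% of tested genes.

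Genes of the extracellular matrix differed in both directions. Of 40 collagens, laminins and matrix glycoproteins tested, 14 were higher and 10 lower (60% called, against 26% of all genes), with a median difference of 0.06. Among the higher members, beside Col12a1, Col1a1, the main chain of collagen I, was at 15.9, 20.8 and 17.4 CPM in NTC, 6.78, 5.57 and 5.3 CPM in shMed1 #2 and 15.9, 15.5 and 14.3 CPM in shMed1 #4 (log2 difference 1.37, SE 0.148, adjusted p = 2.22e-12). Col6a2 (1.09) and Fbln1, the matrix protein fibulin 1 (1.09), were higher too. Spp1, osteopontin, a secreted ligand of integrins and CD44, was at 854, 826 and 1016 CPM in NTC, 147, 135 and 143 CPM in shMed1 #2 and 416, 416 and 414 CPM in shMed1 #4 (log2 difference 1.55, SE 0.061, adjusted p = 5.67e-16). For Spp1 both hairpins lay far below NTC, and shMed1 #2 was the lower. Among the lower members Col4a1, a chain of the basement membrane collagen, had 282, 271 and 282 CPM in NTC, 484, 480.2 and 493 CPM in shMed1 #2 and 369, 368 and 380.1 CPM in shMed1 #4 (log2 difference -0.38, SE 0.0404, adjusted p = 1.11e-12). Its neighbour Col4a2 differed by -0.28, and the 2 genes overlap in the annotation. The laminin gene Lamb3 (-1.18) and the glycoprotein gene Tnc (-0.41) were lower as well. With the offset for GC content and length described at the end, the list gave 11 higher and 13 lower.

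Called adhesion genes were mostly lower, and called matrix proteases and inhibitors mostly higher. Of 31 integrins and focal adhesion genes 13 were lower and 6 higher, with a median difference of -0.09. Of these genes 61.3% were called, against 26% of all genes, with 13.1% lower and 12.9% higher. Itga5, the fibronectin receptor chain, averaged 171 ± 8.21, 309 ± 3.79 and 226 ± 2.11 CPM in NTC, shMed1 #2 and shMed1 #4 (log2 difference -0.46, SE 0.0431, adjusted p = 1.16e-14). Lims2, an adaptor of integrin adhesions, averaged 13.4 ± 1.68, 42.9 ± 3.09 and 25.3 ± 1.28 CPM (log2 difference -0.76, SE 0.0874, adjusted p = 2.35e-11). Against this direction Itgb8, which activates latent TGF-beta, was at 20.1, 16.5 and 23.9 CPM in NTC, 2.87, 1.39 and 2.3 CPM in shMed1 #2 and 7.45, 8.79 and 9.04 CPM in shMed1 #4 (log2 difference 1.93, SE 0.217, adjusted p = 1.77e-11), and Nedd9, a scaffold of focal adhesions, averaged 39.7 ± 2.22, 14.9 ± 1.54 and 36.6 ± 4.45 CPM (log2 difference 1.30, SE 0.0994, adjusted p = 4.39e-19). Of 42 proteases, inhibitors and crosslinkers 15 were higher and 8 lower (54.8% called), with a median difference of 0.08. Mmp3, stromelysin, was at 15.03, 13.7 and 15.7 CPM in NTC, 1.61, 1.74 and 2.54 CPM in shMed1 #2 and 6.28, 5.54 and 4.87 CPM in shMed1 #4 (log2 difference 1.50, SE 0.233, adjusted p = 2.50e-07). Adam19 (2.30) and Adamts9 (1.25) were higher. Plaur, the urokinase receptor, was lower at means of 92.95 ± 4.79, 215 ± 7.07 and 154 ± 2.77 CPM (log2 difference -0.48, SE 0.0465, adjusted p = 3.00e-14). Mmp2, a gelatinase, was called higher (adjusted p = 4.11e-06) on very few reads: the shMed1 #2 libraries held 1, 0 and 1 counts and the shMed1 #4 libraries 17, 12 and 7, so no fold is given.

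Several epithelial genes were higher with shMed1 #4. Of 12 members tested of 34 in the list, 5 were higher and 1 lower, with a median difference of 0.70 (50% called, against 26% of all genes). Without replicate 1 of shMed1 #4 the number lower was 0 and without replicate 3 of NTC it was 2. Krt18, a simple-epithelial keratin, was at 50.3, 50.98 and 50.9 CPM in NTC, 18.6, 20.3 and 17.5 CPM in shMed1 #2 and 47.8, 38.8 and 44.5 CPM in shMed1 #4 (log2 difference 1.22, SE 0.0888, adjusted p = 4.11e-20). Jup, plakoglobin of the desmosome, averaged 9.31 ± 1.15, 2.84 ± 0.773 and 6.78 ± 1.45 CPM (log2 difference 1.25, SE 0.215, adjusted p = 2.59e-06), and Lgals7, galectin 7, averaged 11.4 ± 1.78, 1.31 ± 0.488 and 3.45 ± 0.571 CPM (log2 difference 1.39, SE 0.294, adjusted p = 0.000125). The summed tumour epithelium markers, which are almost wholly Krt18 and so repeat its values, were at 19.8 to 22.6 CPM in shMed1 #2, 41.6 to 52.02 CPM in shMed1 #4 and 56.97 to 58.4 CPM in NTC. Genes of mesenchymal identity did not move as one: 9 of 23 were higher, among them Prrx1, and 4 were lower, among them Cdh2. Vim differed by -0.18, and the summed fibroblast and mesenchyme markers were 2793 to 2916 CPM in shMed1 #2 and 2531 to 2595 CPM in shMed1 #4. That sum is mostly Vim, and the other tested markers in it had higher means with shMed1 #4. Col1a1, Col1a2, Pdgfra and Pdgfrb averaged 5.89, 1.39, 47.9 and 30.9 CPM in shMed1 #2. Their means in shMed1 #4 were 15.2, 2.47, 53.3 and 48.5 CPM. Of 5 tested genes in a list of fibroblast markers 4 were higher and 0 lower, with a median difference of 0.65. The part of these marker shifts in the result was not tested.

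Targets and ligands of the Wnt and Notch pathways, which steer cell fate through contact and secreted signals, were higher or not called. Of 19 members tested 10 were higher and 0 lower (52.6% called, against 26% of all genes), with a median difference of 0.35. Without replicate 2 of shMed1 #4 the number higher was 6. Tcf7, a transcription factor of Wnt signalling, was at 13.3, 13.3 and 11.5 CPM in NTC, 3.45, 2.44 and 3.34 CPM in shMed1 #2 and 9.66, 8.91 and 8.93 CPM in shMed1 #4 (log2 difference 1.57, SE 0.188, adjusted p = 1.10e-10). Hey1, a Notch target, averaged 35.96 ± 3.58, 16.3 ± 1.11 and 26.7 ± 2.92 CPM in NTC, shMed1 #2 and shMed1 #4 (log2 difference 0.71, SE 0.104, adjusted p = 4.42e-08), and Wnt7b, a secreted ligand, averaged 17.1 ± 3.28, 2.35 ± 0.301 and 4.99 ± 1.51 CPM (log2 difference 1.08, SE 0.243, adjusted p = 0.000334). Lfng, which modifies Notch receptors, was higher than both other groups with shMed1 #4, at 12.5, 13.9 and 14.9 CPM in NTC, 11.6, 13.5 and 12.6 CPM in shMed1 #2 and 20.8, 16.6 and 21.2 CPM in shMed1 #4 (log2 difference 0.64, SE 0.12, adjusted p = 1.38e-05). Guidance cues of axons and migrating cells gave 10 higher and 2 lower of 21, with a median difference of 0.20, and 1 was lower without replicate 3 of shMed1 #2. Sema6d (1.18), Slit2 (0.82) and the receptor gene Nrp1 (0.58) were higher. Sema3a, a repulsive secreted cue, was lower (log2 difference -1.09, SE 0.161, adjusted p = 5.49e-08).

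**Figure D4:**
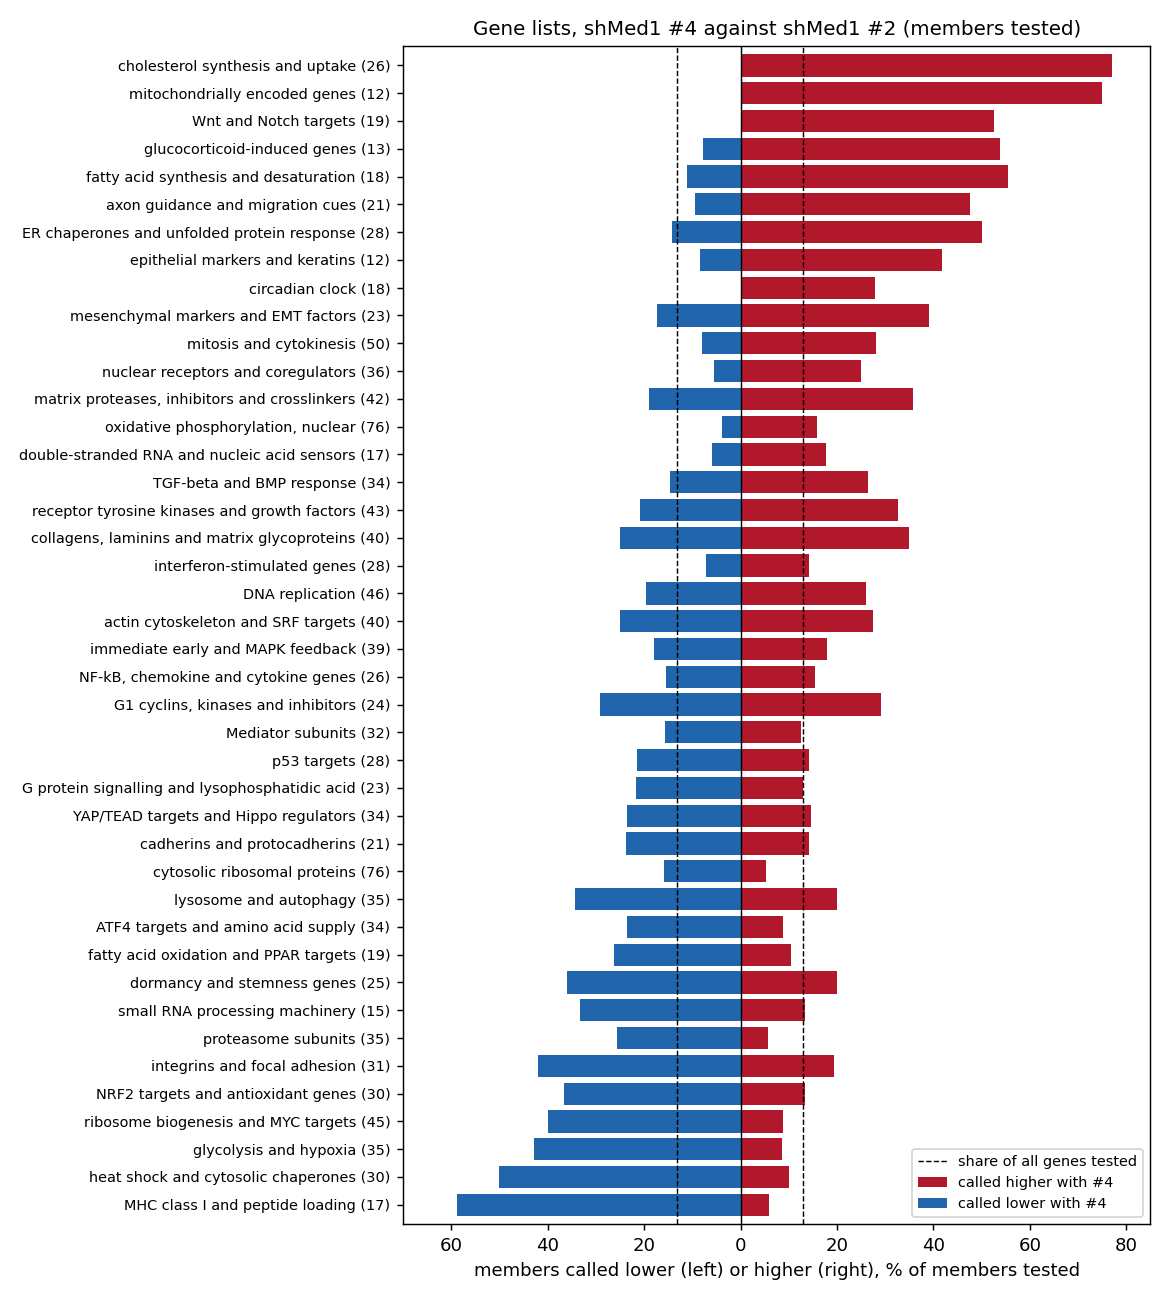
Share of tested members called higher (red, right) or lower (blue, left) with shMed1 #4, for each gene list with at least 12 members tested, whose number is in brackets, and dashed lines mark the 12.9% and 13.1% of all 13611 genes. Cholesterol synthesis is at the top with 20 of 26 higher, and MHC class I is at the bottom with 10 of 17 lower.

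Called genes in the lists of glycolysis, protein folding in the cytosol and ribosome biogenesis with MYC targets were mostly lower, by small amounts. The shares called were 51.4%, 60% and 48.9%, against 26% of all genes, of which 13.1% were lower and 12.9% higher. In the highest of 3 equal sets by mean level 39.1% of genes were called, with 24.2% lower and 14.9% higher. The lists were not matched for mean level. In glycolysis and hypoxia 15 of 35 members were lower and 3 higher, with a median difference of -0.11. Pgk1, a glycolytic kinase, was at 1015, 1086 and 1035 CPM in NTC, 1321, 1310.3 and 1341 CPM in shMed1 #2 and 995, 981 and 1050.1 CPM in shMed1 #4 (log2 difference -0.39, SE 0.0384, adjusted p = 4.73e-14). Pdk1, which holds back pyruvate entry into mitochondria, differed by -0.69 and Bnip3, a hypoxia-induced mitophagy receptor, by -0.58. Among cytosolic chaperones 15 of 30 were lower and 3 higher, with a median of -0.10, and Hsp90aa1 averaged 1512 ± 32.6, 2102 ± 51.99 and 1798 ± 99.2 CPM in NTC, shMed1 #2 and shMed1 #4 (log2 difference -0.23, SE 0.0383, adjusted p = 1.95e-06). Ribosome biogenesis genes and MYC targets, 1 list, gave 18 lower and 4 higher of 45, with a median of -0.10. Rrn3, the initiation factor of RNA polymerase I, averaged 165 ± 9.44, 217 ± 5.64 and 167 ± 4.75 CPM (log2 difference -0.38, SE 0.0462, adjusted p = 2.45e-10), and Npm1, nucleophosmin, averaged 1640.3 ± 54.2, 1696 ± 98.6 and 1389 ± 43.5 CPM (log2 difference -0.29, SE 0.0392, adjusted p = 6.50e-09). Cytosolic ribosomal proteins themselves were called in 16 of 76 cases (21.1% against 26% of all genes), with 12 lower and 4 higher, but 19 were lower without replicate 1 of shMed1 #4 and 8 higher without replicate 3 of shMed1 #4. Without replicate 2 of shMed1 #2 the numbers higher were 1 chaperone and 2 genes of the ribosome biogenesis and MYC target list. Without replicate 3 of shMed1 #4 the number was also 1 chaperone.

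Antioxidant genes under the factor NRF2 split. Of 30 members 11 were lower and 4 higher (50% called, against 26% of all genes), with a median difference of -0.06. Nqo1, a quinone reductase, was at 166, 160.3 and 170.3 CPM in NTC, 440.2, 414 and 402 CPM in shMed1 #2 and 267, 248 and 256 CPM in shMed1 #4 (log2 difference -0.70, SE 0.043, adjusted p = 1.75e-24). Slc7a11, the cystine importer, was at 70.8, 76.4 and 74.3 CPM, 57.6, 66.4 and 60.5 CPM and 40.5, 36.9 and 37.4 CPM in the same order (log2 difference -0.68, SE 0.0707, adjusted p = 4.73e-13). Nqo1 was above NTC in both hairpin groups and Slc7a11 below it in both, and shMed1 #4 was the lower group for each. Txnrd1, thioredoxin reductase, differed by -0.34, whereas Gsr differed by 1.71. Of 12 mitochondrially encoded genes 9 were higher and 0 lower, with a median of 0.25, with mt-Atp6 as an example (log2 difference 0.55, SE 0.0912, adjusted p = 1.24e-06). The share of all counts on the mitochondrial chromosome was 3.89% to 3.97% with shMed1 #2 and 4.31% to 4.52% with shMed1 #4, and 3.73% to 3.99% with NTC. Its part in the result was not tested. Nuclear genes of oxidative phosphorylation were higher in 12 of 76 cases and lower in 3 (19.7% called, against 26% of all genes). Without replicate 1 of shMed1 #4 the number higher was 6, and without replicate 2 of shMed1 #2 the number lower was 1.

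Called genes of cell division went both ways. Of 50 mitotic genes 14 were higher and 4 lower (36% called, against 26% of all genes), with a median of 0.05. Without replicate 2 or 3 of shMed1 #2, 2 were lower. Ube2c, the ubiquitin-conjugating enzyme of the anaphase-promoting complex, averaged 333 ± 7.19, 306 ± 15.97 and 387 ± 15.5 CPM in NTC, shMed1 #2 and shMed1 #4 (log2 difference 0.34, SE 0.0428, adjusted p = 7.69e-10), while Cdca8, borealin of the chromosomal passenger complex, was lower (log2 difference -0.58, SE 0.0554, adjusted p = 1.85e-14). Among 24 cyclins, kinases and inhibitors of G1, 7 were higher and 7 lower (58.3% called), and 4 and 4 without replicate 2 of shMed1 #2. In DNA replication 12 of 46 were higher, such as Pola1 (0.47), and 9 lower, such as Orc2 (-0.38), with 45.7% called. The immediate early and MAPK feedback genes, which lie downstream of ERK1, gave 7 higher and 7 lower of 39 (35.9% called). Their median was -0.05, and 4 were higher without replicate 2 of shMed1 #2 or replicate 3 of shMed1 #4. Etv4 (-0.48) and Etv5 (-0.52) were lower and Jund was higher, at 177, 189 and 191 CPM in NTC, 120.01, 109 and 116 CPM in shMed1 #2 and 185, 187 and 189 CPM in shMed1 #4 (log2 difference 0.70, SE 0.0485, adjusted p = 2.93e-21).

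Some genes that process and use small RNAs differed between the hairpins. Of 15 tested 5 were lower and 2 higher (46.7% called, against 26% of all genes), with a median of -0.07. Without replicate 1 or 3 of either hairpin, 1 was higher. Dicer1, the enzyme that cuts hairpins, was at 108, 94.6 and 94.4 CPM in NTC, 124, 128 and 124 CPM in shMed1 #2 and 89.3, 94.5 and 79.9 CPM in shMed1 #4 (log2 difference -0.51, SE 0.0561, adjusted p = 6.28e-12). The hairpin groups did not overlap, and shMed1 #2 lay above NTC. Ago2, the slicing Argonaute, differed by -0.17 and Drosha, the nuclear processing enzyme, by -0.18.

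Other lists had calls in both directions, against the background of 26% called. With members higher and lower, these were nuclear receptors and coregulators (9 and 2 of 36, with 1 lower without replicate 3 of shMed1 #4), YAP and TEAD genes (5 and 8 of 34), TGF-beta and BMP response genes (9 and 5 of 34), p53 targets (4 and 6 of 28), genes of amino acid supply under ATF4 (3 and 8 of 34, with 1 higher without replicate 2 of shMed1 #2) and proteasome subunits (2 and 9 of 35, with 5 lower without replicate 2 of shMed1 #2 and 1 higher without replicate 3 of shMed1 #2, replicate 1 or 2 of shMed1 #4 or any NTC library).

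Called genes were spread unevenly over mean level, chromosomes and base composition. Of 3 equal sets of genes ordered by mean level, the highest had 14.9% higher and 24.2% lower. The lowest set had 10% higher and 4.39% lower. The shares over all genes that stand beside the gene lists were not matched for mean level. On chromosome 6, 146 of 692 genes were higher and 44 lower, and on chromosome 7, 191 and 67 of 1008. On chromosome 8 the balance was 76 higher to 175 lower of 791, and on chromosome 12, 32 to 100 of 486. Of 3 equal sets of genes ordered by GC content, the richest held 893 higher and 338 lower genes and the poorest 371 and 832. In single libraries the median level of the GC-rich set minus that of the GC-poor set, each relative to the mean of the 9 libraries, was -0.12 to -0.06 on the log2 scale with shMed1 #2, -0.03 to 0.08 with shMed1 #4 and 0.04 to 0.10 with NTC. With an offset for GC content and length in each library, a choice made after seeing the data, 3513 genes were called, of which 2999 were also called without it, and 44.2% of the calls were higher instead of 49.7%. Under that offset 21 cholesterol genes were higher and 0 lower, 11 MHC class I genes were lower and 1 higher, and 14 chaperone genes were higher and 4 lower.

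**Figure D5:**
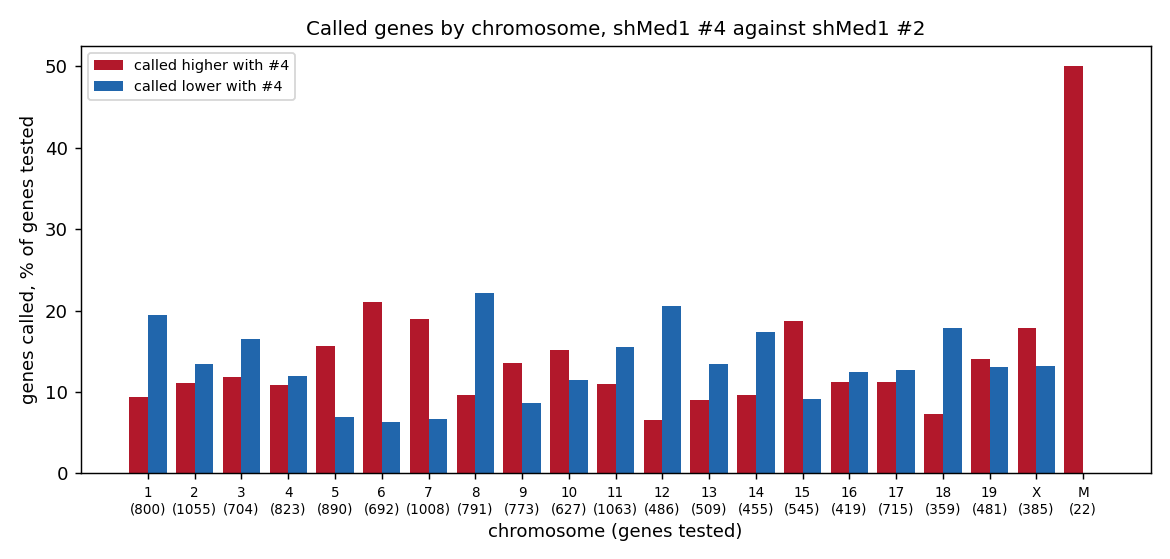
Share of tested genes called higher (red) or lower (blue) with shMed1 #4 on each chromosome, as a percentage (vertical) with the number tested in brackets. Higher calls exceed lower ones on chromosomes 5, 6, 7 and 15 among others, and lower calls exceed higher ones on chromosomes 1, 8, 12, 14 and 18 among others. On the mitochondrial chromosome 11 of 22 genes are higher and 0 lower.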

How the data were processed

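RNA was sequenced on a BGISEQ-500, per the labels. The authors aligned reads with STAR to GRCm38 and counted them per gene with HTSeq, per the submitters' processing notes, and deposited raw counts for 55335 genes in each of 9 samples. For versions, annotation and strand the sources used here give nothing, so reads of overlapping genes cannot be told apart, which touches Ccnd2, Cp, Rgs16, Tap1, Nlrc5, Fdft1, Fdps, Lims2, Pdia6, Srebf1, Txnrd1 and Ube2c among the genes named. Symbols and positions come from GENCODE M21 by gene ID, with 54587 IDs matched including the version.

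Genes were filtered with filterByExpr and tested with edgeR 4.0.16 in R 4.3.3 (TMM scaling, robust quasi-likelihood fit, 1 coefficient for each of the 3 groups, 6 residual degrees of freedom, Benjamini-Hochberg adjustment over all genes tested). Differences are edgeR's fitted log2 fold changes with its default prior count, log2 CPM levels use a prior count of 2, and the common biological coefficient of variation was 3.68%. On simulated counts the procedure recovered 42% of changes of 1.2-fold, 68% of 1.5-fold, 88% of 2-fold and 100% of 3-fold. Each size was set in 50 genes, and 5.1% of the calls were false. A gene that is not called may therefore still differ by a small amount. Replicates differed beyond sampling noise, with a chi-square per degree of freedom of 1.51 to 2.40. Alternatives were DESeq2 1.42.0 and other scalings, filters, thresholds and sets of samples.

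Named genes were Med1 and Med4, the 12 highest and 12 lowest called genes by size whose mean reached 1 log2 CPM (predicted genes, clones and pseudogenes left out), the 8 smallest p in each direction, and up to 4 members of each list, called members first and then by size. Other named members and the genes in the closing section were chosen after their values were seen. The members and lists were chosen with earlier results of these data known. Some genes are not reported here.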

Additional observations from a re-analysis of the deposited data

How the results depend on the processing

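Of 3540 genes called between the hairpins, 268 (203 higher and 65 lower) differed by at least 2-fold, and 2381 passed an adjusted p under 0.01. Leaving out 1 library at a time gave 2817 (without replicate 2 of shMed1 #2) to 3566 calls, of which 1376 to 1747 were higher and 1441 to 1819 lower. Against NTC it gave 5290 to 6138 calls with shMed1 #2 and 3172 to 3878 with shMed1 #4. The Med1 difference lay between 0.04 and 0.14 and was not called under any alternative run. DESeq2 called 2524 genes, 2522 of them among the 3540. Scaling by library size alone called 3488, 58.2% of them higher against 49.7%, and moved the median of all genes to 0.03. With the offset for GC content and length 44.2% of the calls were higher, and among genes whose mean reached 4 log2 CPM 43.9% of 2943 calls were. Replicate numbers are shared by the groups, but same-numbered samples did not deviate together (r from -0.06 to 0.07), so they were not taken as pairs, and with the number as a replicate block 3461 genes were called, 3443 of them among the 3540. No alternative reversed a named gene. Of 247 called genes followed through the alternatives, 207 kept call and direction in every one without a size minimum or a stricter p. The rest lost the call in some of them. Depth limits the low genes: 3 counts are 0.338 to 0.369 CPM.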

Other observations

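Most genes of the Hoxa cluster, which encode homeobox factors of body-axis identity, were higher with shMed1 #4. They and the families and windows that follow were picked after their values were seen, so no test of these groups was made. Of 9 Hoxa genes tested on chromosome 6, 7 were called higher and 0 lower, and Hoxa9 and Hoxa10 were not called, with Hoxa10 pointing the other way (log2 difference -0.31, SE 0.132, adjusted p = 0.0699). Hoxa5 stood at 38.5, 39.5 and 39.1 CPM in NTC, 28.2, 23.5 and 28.4 CPM in shMed1 #2 and 35.8, 37.4 and 33.6 CPM in shMed1 #4 (log2 difference 0.42, SE 0.0862, adjusted p = 8.35e-05). Hoxa7 stood at 48.1, 48.9 and 45.5 CPM, 38.2, 37.04 and 40.8 CPM and 47.01, 46.9 and 51.4 CPM in the same order (log2 difference 0.33, SE 0.0738, adjusted p = 0.000346). The hairpin groups were separate in both genes. Hoxa2, Hoxa3, Hoxa4 and Hoxa6 each lost the call when at least 1 library was left out, at differences between 0.24 (Hoxa3 without replicate 1 of shMed1 #4) and 0.54 (Hoxa6 without replicate 3 of shMed1 #2), and cluster genes overlap one another and antisense transcripts. No gene of the other Hox clusters was tested.

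Windows of 5 Mb were taken over the tested genes whose mean reached 2 log2 CPM. Of 208 windows with at least 20 such genes, the central 90% had a median difference between -0.12 and 0.12. The Hoxa genes lie on chromosome 6 between 50 and 55 Mb, where the median was 0.19 (8 higher and 2 lower of 29 genes). The 7 Hoxa genes called higher are among those 8, so this window largely repeats their values. The neighbouring window, 45 to 50 Mb, had a median of 0.26 (11 higher and 0 lower of 24), and the highest window was on chromosome X between 5 and 10 Mb (0.29; 12 higher and 3 lower of 30). The lowest was on chromosome 8 between 85 and 90 Mb, at -0.27, with 21 of 32 genes lower and 0 higher. Of 52 genes whose symbol begins with Eif, 18 were lower (34.6%, against 13.1% of all genes) and 3 higher (5.77%, against 12.9%). This family holds initiation factors, with the eIF2 kinases and eIF4E-binding proteins among them. Of 10 annexins 5 (50%) were lower and 0 higher. Of 308 Zfp genes, which encode zinc-finger proteins, 33 were higher (10.7%, against 12.9% of all genes) and 15 lower (4.87%, against 13.1%). The families were not matched for mean level, and in the highest of 3 equal sets by mean level 24.2% of genes were lower.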
